A study of Mus musculus with 20 samples.

Results

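The 7 genes described here mark tendon cells and the tissues beside them: the transcription factors Scx and Mkx, the membrane proteins Tnmd and Chodl, the sheath marker Tppp3, and the secreted proteins Prg4 and Cilp. They were chosen by name and make up 7 of the 29986 genes of the count table. All 7 were among the 14420 genes with enough counts to be tested. RNA sequencing measured them in tenocytes, the fibroblast-like cells that build the collagen of tendon, isolated from tail tendon of wild-type C57Bl/6 mice of adult age. Cells had recombinant insulin-like growth factor 1 (IGF1) at 100 ng/mL for 1, 2, 6 or 24 h, or none at 0 h, with 4 libraries per time and 20 in all. Cells kept for those times without IGF1 are not analysed here, so the effect of IGF1 and that of the time itself cannot be told apart.

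IGF1 binds a receptor tyrosine kinase that signals through PI3 kinase and AKT and through ERK, and in tendon it is known to promote cell growth and collagen synthesis. Scx, a basic helix-loop-helix factor, and Mkx, a homeobox factor, are needed for normal tendon in mice. Scx is known to act upstream of Tnmd, and it binds E-box sequences of the form CANNTG.

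Levels are in CPM, that is, read counts scaled to a common library size with a TMM factor, and are given as mean ± SD with n = 4 per time. Fold changes are log2 ± SE against 0 h from edgeR's quasi-likelihood fit across all genes. A gene is called when its p, adjusted over all 14420 genes by the Benjamini-Hochberg method, is under 0.05. From the labels it is not known if replicates are separate mice or cultures, so p-values measure the spread between these libraries, which may be technical. In bulk RNA, fewer cells of a type and less RNA per cell cannot be told apart.

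Library totals ran from 13734425 to 22687173 counts. The matrix transcripts Col1a1, Col1a2, Fmod and Thbs4, which tendon fibroblasts make but not they alone, were abundant in all 20 libraries. Some libraries stood apart. Pairs of libraries of the same time were compared by chi-square per degree of freedom. The highest values, 38.8, 52.5 and 41.5, were those of 2 h replicate 4 against 2 h replicates 1, 2 and 3. Among 2 h replicates 1 to 3 the values were 8.67, 16.8 and 29.9. The summed level of macrophage markers was 589, 1074, 408 and 494 CPM in 2 h replicates 1 to 4, against 271 to 342 CPM at 0 h, and 11 of the 12 tested markers were called higher at 2 h. Without 2 h replicates 1 and 2 edgeR called none of them (1 passed at 0.05 before adjustment), and DESeq2 called 1. Schwann cell markers summed to 108 CPM in 2 h replicate 2, against 27.0 to 36.6 CPM in the other 3 libraries of that time. In 1 h replicate 4, the bone gene Ibsp reached 21.1 CPM, and in the other 19 libraries it was at most 0.582 CPM. The cartilage genes Cnmd (5.57 CPM, others at most 1.45), Col9a1 (2.91, 0.756) and Col2a1 (74.5, 63.3) were highest in that library too. Skeletal muscle markers summed to at most 13.6 CPM in any library. The part of these cells in the results at 1 and 2 h was not tested. Without 1 h replicate 4 the log2 changes of Mkx, Tnmd, Chodl, Tppp3, Prg4 and Cilp at 1 h were −0.27, −0.067, −0.13, 0.26, −0.085 and −0.057, against −0.25, −0.051, −0.18, 0.29, −0.095 and −0.10 with it, and only Mkx was called, both ways (adjusted p = 0.0339 without it). Values without 2 h replicates 1 and 2 stand beside the results at 2 h. Without 2 h replicate 4 the log2 changes at 2 h of Scx, Mkx, Chodl, Tppp3 and Cilp were 1.17, −0.97, −0.55, 1.42 and −0.20. Each of these was still called. Those of Tnmd and Prg4 were then −0.20 and 0.095 and were not called.

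Of the 7 genes, 6 changed over the 5 times and Tnmd did not pass the test. Scx rose 2.38-fold at 1 h and 2.51-fold at 2 h of IGF1, and at 24 h no difference from 0 h was called. Mkx was lowest at 2 h, at 0.536 of its 0 h level, and was higher again at 6 and 24 h. Chodl and Cilp were lowest at 24 h, at 0.344 and 0.50 of their 0 h levels. Prg4 was called lower at 24 h alone, and Tppp3 had few reads in any library.

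At 1 h, 1 of the 7 genes was called higher and 1 lower, where 6.75% of all tested genes were called higher and 3.88% lower. At 2 h, 2 of 7 were higher and 3 lower, against 20.2% and 17.5% of all genes. At 6 h the counts were again 2 and 3, against 20.6% and 19.6%. At 24 h edgeR called none higher (1 passed before adjustment, and 1 in DESeq2), where 12.7% of all genes were, and 4 lower, where 13.2% were. The test over all 5 times called 6 of 7, against 63.7% of all genes. With 7 genes these counts say little by themselves, and the values of each gene follow.

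**Figure D1:**
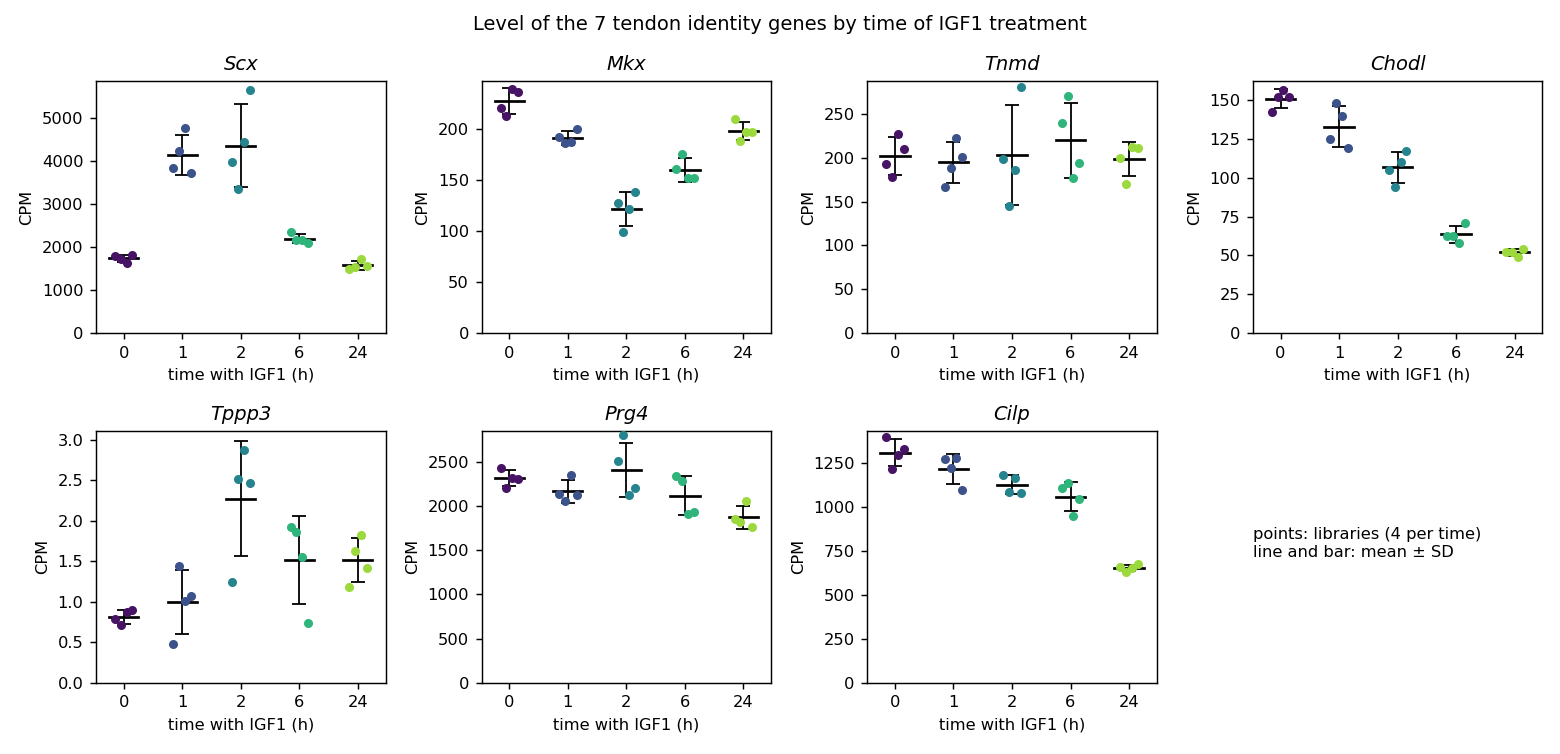
Level of each gene in CPM (vertical axis) at 0, 1, 2, 6 and 24 h of IGF1 (horizontal axis); points are libraries, lines and bars the mean ± SD of 4. Scx is high at 1 and 2 h, Mkx dips at 2 h, Chodl and Cilp decline to 24 h, and the Tnmd points overlap at all times.

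Scx (ENSMUSG00000034161; mm10, chromosome 15, bases 76457452 to 76459458, plus strand) was the most abundant of the 7 per length of transcript. At 0 h it had 865 ± 40.4 CPM per kb of exon. Among 14412 genes with a length it ranked 27, 8, 7, 15 and 25 at 0, 1, 2, 6 and 24 h. In CPM, its level in replicates 1 to 4 was 1792, 1715, 1630.3 and 1807 at 0 h. It was 3838, 4220.0, 4760.3 and 3725 at 1 h and 3975, 3356, 4442 and 5642.5 at 2 h. All 8 libraries of 1 and 2 h lay above all 4 of 0 h. The level was 2341, 2172, 2163 and 2100.2 CPM at 6 h and 1484, 1535.5, 1726 and 1562 CPM at 24 h. The 6 h libraries still lay above those of 0 h, and the 24 h libraries overlapped them. The means were 1736 ± 81.2, 4136 ± 467, 4354 ± 968, 2194 ± 103 and 1577 ± 105 CPM over the 5 times.

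Against 0 h, the log2 fold change of Scx was 1.25 ± 0.109 at 1 h (adjusted p = 3.42e-08), a 2.38-fold level with a 95% interval of 2.05 to 2.76. At 2 h it was 1.33 ± 0.109 (adjusted p = 4.29e-09), or 2.51-fold. Scx was still 1.26-fold higher at 6 h (0.34 ± 0.108, adjusted p = 0.0158). At 24 h the change of −0.14 ± 0.108 did not pass the test (adjusted p = 0.387). The order of its levels was 2, 1, 6, 0 and 24 h. In it 2 h and 1 h were not called different (0.074, adjusted p = 0.693), 6 h was lower than 1 h (−0.92, 1.04e-06), and 0 h and 24 h were not called different.

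Scx varied more between libraries at 2 h than at other times, with a coefficient of variation of 22.2%. Its lowest 2 h value was in replicate 2, the library with the most macrophage and Schwann cell markers, and its highest in replicate 4. Without 2 h replicates 1 and 2 the log2 change at 2 h was 1.54 (adjusted p = 2.52e-12), and Scx was then also higher at 2 h than at 1 h (0.30, adjusted p = 0.0239). Without 2 h replicate 4 alone the change at 2 h was 1.17 (adjusted p = 1.03e-10). In the 20 fits that each left out 1 library, 2 h against 1 h ran from −0.067 to 0.19 and was never called. Without 1 h replicate 4 the change at 1 h was 1.30 (adjusted p = 9.57e-08).

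The whole of Scx lies within the span of Bop1, a ribosome biogenesis gene on the opposite strand, and the annotation gives them no exonic base in common. Whether the counting used strand is not given in the sources used here. Bop1 had 224 ± 23.1, 230.2 ± 18.5, 253 ± 27.0, 296 ± 23.2 and 184 ± 15.1 CPM at 0, 1, 2, 6 and 24 h. Bop1 changed by 0.041 at 1 h (adjusted p = 0.84), when Scx was 2.38-fold higher. It was highest at 6 h (0.40, adjusted p = 0.000259), when Scx was lower than at 1 h, and it was below its 0 h level at 24 h (−0.28, adjusted p = 0.0126).

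**Figure D2:**
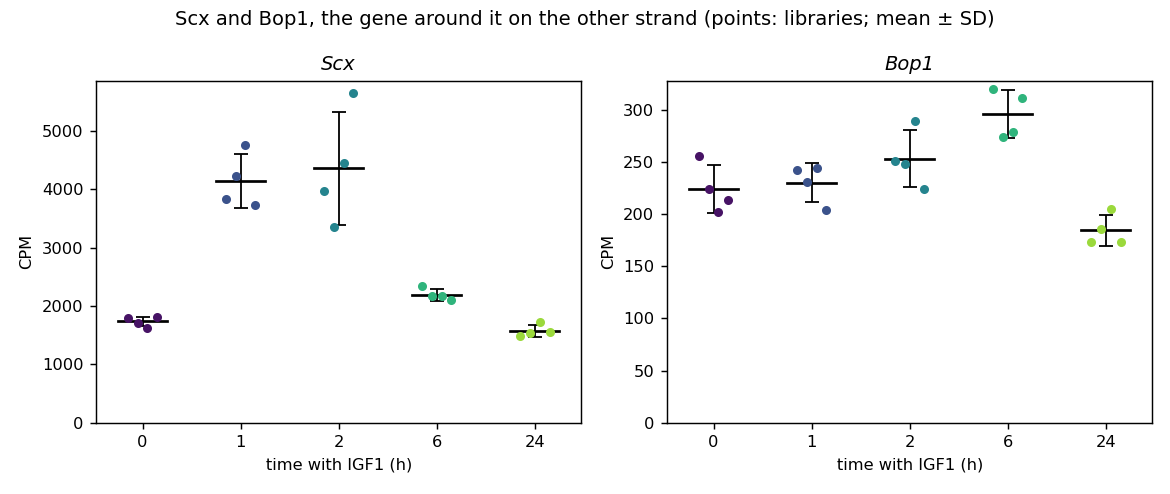
Level in CPM (vertical axes, different scales) of Scx and of Bop1, the gene around it on the opposite strand, by hours of IGF1; points are libraries, lines and bars mean ± SD of 4. Scx is highest at 1 and 2 h and Bop1 at 6 h.

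Mkx (ENSMUSG00000061013; mm10, chromosome 18, bases 6934518 to 7004780, minus strand), known in mice for the growth of tendon collagen fibrils, moved the other way. Its level in replicates 1 to 4 was 221, 212, 239 and 236 CPM at 0 h. It was 192, 186, 187 and 199.9 CPM at 1 h and 127, 99.3, 122 and 139 CPM at 2 h. No 2 h library reached the lowest 1 h or 0 h library. Levels were 160.3, 176, 152 and 151 CPM at 6 h and 209, 188, 197 and 197 CPM at 24 h. At each of the 4 treated times all libraries lay below all of 0 h. The means were 227 ± 12.7, 191 ± 6.44, 122 ± 16.5, 159.8 ± 11.4 and 198 ± 8.86 CPM over the 5 times.

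The log2 fold change of Mkx was −0.90 ± 0.0751 at 2 h (adjusted p = 3.04e-10), a 0.536-fold level with a 95% interval of 0.484 to 0.593. It was −0.51 ± 0.0744 at 6 h (adjusted p = 3.61e-06). From 2 h the level climbed at 6 h (0.39 against 2 h, adjusted p = 0.000239) and again at 24 h (0.31 against 6 h, adjusted p = 0.00193). Without 2 h replicates 1 and 2, the change at 2 h was −0.81 (adjusted p = 2.45e-09). Mkx shares 4.91% of its exonic bases with a gene model on the same strand that is not analysed here.

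The smaller changes of Mkx at 1 h (−0.25 ± 0.0742, adjusted p = 0.0272) and 24 h (−0.20 ± 0.0743, adjusted p = 0.047) were near the threshold. The call at 1 h was lost on leaving out 0 h replicate 3 (adjusted p = 0.0924) or 4 (0.083), or 1 h replicate 1 (0.054), 2 (0.078) or 3 (0.0793). The 24 h call was lost in 13 of 20 fits that each left out 1 library (adjusted p of 0.0505 to 0.139 in those). These were 0 h replicates 1, 3 and 4, all of 1 h, 6 h replicates 1, 3 and 4, and 24 h replicates 2, 3 and 4. The order of levels was 0 h, 24 h, 1 h, 6 h and 2 h, and of the neighbours in it only 24 h and 1 h were not called different (adjusted p = 0.65).

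Because both factors moved within 2 h, their ratio in single libraries was compared as a description. Scx over Mkx in CPM was 8.12, 8.08, 6.81 and 7.66 at 0 h. It was 20, 22.7, 25.5 and 18.6 at 1 h and 31.3, 33.8, 36.5 and 40.7 at 2 h. The ratios of these 3 times did not overlap, although Scx itself overlapped between 1 and 2 h. The ratio averaged 13.8 ± 0.976 at 6 h and 8.0 ± 0.697 at 24 h. At 24 h its libraries, at 7.09 to 8.77, overlapped those of 0 h.

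**Figure D3:**
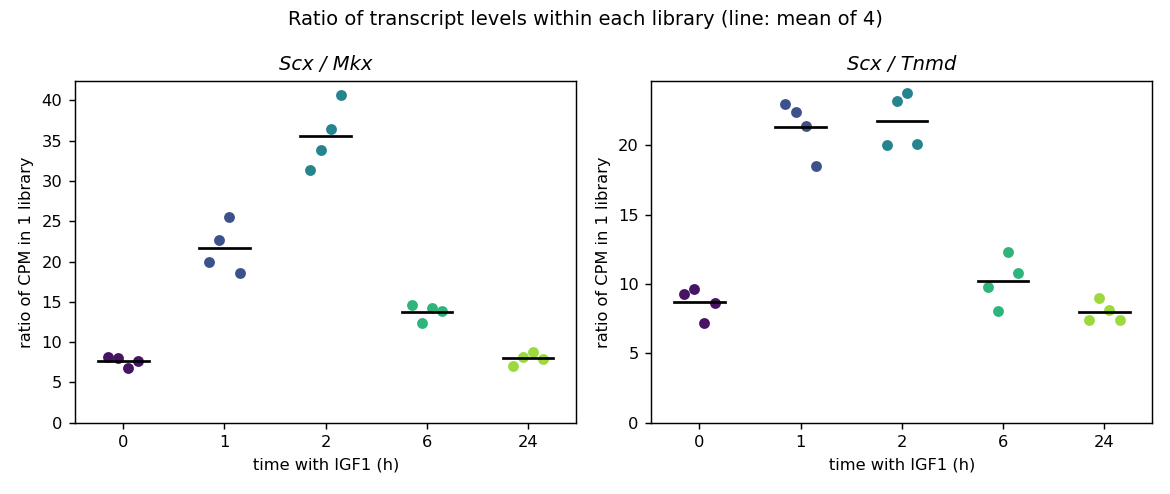
Ratio of the CPM of Scx to that of Mkx (left) and of Tnmd (right) within each library (vertical axes) by hours of IGF1; points are libraries and lines the mean of 4. Scx over Mkx is highest at 2 h (31.3 to 40.7), and Scx over Tnmd is 18.5 to 23.8 at 1 and 2 h.

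Tnmd (ENSMUSG00000031250; mm10, chromosome X, bases 133850980 to 133865577, plus strand) encodes tenomodulin, a membrane glycoprotein used as a marker of mature tenocytes. Its mean was 202 ± 21.4, 195 ± 23.5, 203 ± 57.0, 220.1 ± 42.7 and 199 ± 19.7 CPM at 0, 1, 2, 6 and 24 h. Replicates 1 to 4 had 193, 178, 227 and 210.0 CPM at 0 h, 167, 189, 223 and 201 CPM at 1 h, and 199, 145, 187 and 281 CPM at 2 h. At 6 h they had 239, 270.3, 176 and 194 CPM, and at 24 h 200.2, 170.5, 213 and 212 CPM. The libraries of every time overlapped those of every other.

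No change of Tnmd passed the test at any time (adjusted p over all 5 times = 0.881). The fold change at 2 h was 1.00 with a 95% interval of 0.795 to 1.27, and at 24 h it was 0.984 (0.779 to 1.24). Its neighbours in the order 6, 2, 0, 24 and 1 h were not called different, with adjusted p from 0.661 to 0.988. At 2 h replicate 2 had the lowest and replicate 4 the highest Tnmd of all 20 libraries, as for Scx within that time. Without 2 h replicates 1 and 2 the log2 change at 2 h was 0.21 (adjusted p = 0.433), and without 2 h replicate 4 it was −0.20 (adjusted p = 0.344). Scx over Tnmd in CPM was 20, 23.2, 23.8 and 20.1 at 2 h, against 9.27, 9.65, 7.17 and 8.60 at 0 h. The 2 h values lay above all of 0 h.

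Chodl (ENSMUSG00000022860; mm10, chromosome 16, bases 78930948 to 78951733, plus strand) encodes chondrolectin, a membrane protein with a C-type lectin domain. It had the largest fall of the 7 genes. Replicates 1 to 4 had 142, 152, 157 and 152 CPM at 0 h, 125, 148, 139.7 and 119 CPM at 1 h, and 105, 94.0, 110.5 and 117 CPM at 2 h. They had 62.6, 62.4, 58.1 and 71.1 CPM at 6 h and 52.0, 52.2, 49.2 and 54.3 CPM at 24 h. The 1 h libraries overlapped those of 0 h, and from 2 h on each time lay wholly below the one before. The mean was 51.9 ± 2.08 CPM at 24 h, against 151 ± 6.10 CPM at 0 h.

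The log2 fold change of Chodl was −0.50 ± 0.074 at 2 h (adjusted p = 5.41e-06), −1.25 ± 0.0756 at 6 h (4.96e-13) and −1.54 ± 0.0769 at 24 h (2.41e-14). The 24 h level was 0.344 of that at 0 h, with a 95% interval of 0.31 to 0.382. Each step between neighbours from 1 h on was called: −0.32 at 2 h against 1 h (adjusted p = 0.0037), −0.75 at 6 h against 2 h (2.36e-08) and −0.29 at 24 h against 6 h (0.00392). The change at 1 h, −0.18 ± 0.0737, was not called (adjusted p = 0.124), but it was without 2 h replicate 4 (0.0299) or without 2 h replicates 1 and 2 (0.0489). Without those replicates 1 and 2 the step at 2 h against 1 h lost its call (−0.21, adjusted p = 0.0682), as it did with only the 8 libraries compared (−0.31, 0.0751), and the change at 2 h against 0 h remained (−0.41, 0.000252).

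Cilp (ENSMUSG00000042254; mm10, chromosome 9, bases 65265180 to 65280605, plus strand) encodes cartilage intermediate layer protein, a secreted matrix protein. The human protein has been described as a brake on IGF1 and TGF-beta signalling. Replicates 1 to 4 had 1395, 1213, 1293 and 1331 CPM at 0 h, 1271.5, 1221, 1278 and 1096 CPM at 1 h, and 1183, 1082, 1163.5 and 1079 CPM at 2 h. They had 1108, 1135, 949 and 1043 CPM at 6 h and 656, 631, 652 and 676 CPM at 24 h. The 24 h libraries lay far below all others and close together, and those of 2 and 6 h lay below 0 h by a smaller step. The mean was 654 ± 18.4 CPM at 24 h, against 1308 ± 76.0 CPM at 0 h.

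At 24 h Cilp was at 0.50 of its 0 h level (log2 −1.0 ± 0.0639, 95% interval of the fold 0.459 to 0.546, adjusted p = 2.51e-12). The earlier changes were −0.22 ± 0.0632 at 2 h (adjusted p = 0.00859) and −0.30 ± 0.0633 at 6 h (0.000316), and at 1 h none was called (−0.10, 0.358). The change at 2 h was −0.23 without 2 h replicates 1 and 2 (adjusted p = 0.0144). Of the neighbours in its order of levels, 0, 1, 2, 6 and 24 h, only 24 h was called different from the one before (−0.70 against 6 h, adjusted p = 1.52e-09). Per length of transcript Cilp ranked 206 at 24 h, against 79 at 0 h, and Chodl ranked 4283 at 24 h, against 1574 at 0 h.

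Promoter sequences are shown for Chodl and Cilp, which fell most, and for Tnmd, the known Scx target that did not pass the test. These 3 of the 7 genes were in the RefSeq promoter table used (GRCm38.p6, the plus strand for all 3, 250 bases before to 50 after the start). Capitals mark E-boxes, CANNTG, a pattern that reads the same on both strands.
Cilp: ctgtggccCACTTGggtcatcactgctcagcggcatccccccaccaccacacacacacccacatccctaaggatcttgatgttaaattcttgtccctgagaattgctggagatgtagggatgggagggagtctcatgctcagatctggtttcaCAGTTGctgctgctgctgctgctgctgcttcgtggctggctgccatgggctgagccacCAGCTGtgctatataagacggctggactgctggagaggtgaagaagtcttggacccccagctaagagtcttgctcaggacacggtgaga
Chodl: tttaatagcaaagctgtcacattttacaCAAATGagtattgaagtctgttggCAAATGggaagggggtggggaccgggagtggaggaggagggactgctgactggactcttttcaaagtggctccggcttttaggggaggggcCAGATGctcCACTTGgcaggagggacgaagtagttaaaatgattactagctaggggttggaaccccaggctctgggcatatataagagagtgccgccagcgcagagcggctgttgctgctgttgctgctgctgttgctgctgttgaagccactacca
Tnmd: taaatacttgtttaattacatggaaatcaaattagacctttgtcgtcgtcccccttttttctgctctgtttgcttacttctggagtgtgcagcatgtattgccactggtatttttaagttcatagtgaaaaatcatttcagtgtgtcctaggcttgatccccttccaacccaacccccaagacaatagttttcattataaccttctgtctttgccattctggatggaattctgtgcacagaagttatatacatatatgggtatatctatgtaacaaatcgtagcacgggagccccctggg
They cover chr9:65264930-65265229, chr16:78930698-78930997 and chrX:133850758-133851057. The Cilp window holds 3 E-boxes, the Chodl window 4 and the Tnmd window none. Of 32851 windows of this length in the table, 72.3% hold at least 1 E-box, 17.6% at least 3, 6.49% at least 4 and 27.7% none. The letters TATATAA, which were looked for after the sequences had been read, start 30 bases before the start in Cilp and 29 before it in Chodl, and 3.24% of windows hold them on either strand. On the strand shown they do not occur in the Tnmd window, which holds their reverse complement, TTATATA. These matches describe the letters alone.

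Prg4 (ENSMUSG00000006014; mm10, chromosome 1, bases 150449412 to 150466165, minus strand) encodes lubricin, the lubricating proteoglycan of joints and gliding tendon surfaces. Its mean was 2314 ± 93.3, 2167 ± 129, 2409 ± 308, 2118 ± 224 and 1874 ± 129 CPM at 0, 1, 2, 6 and 24 h. At 24 h replicates 1 to 4 had 1852, 1818, 2061 and 1766 CPM, against 2432, 2204.5, 2315.5 and 2304 CPM at 0 h. Those groups did not overlap, and the log2 change was −0.30 ± 0.0791 (adjusted p = 0.00482), a 0.81-fold level.

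The other 3 times did not pass the test for Prg4, with log2 changes of −0.095 at 1 h (adjusted p = 0.543), 0.058 at 2 h (0.598) and −0.13 at 6 h (0.209). At 2 h the highest value, 2799 CPM, was in replicate 2, and without 2 h replicates 1 and 2 the change was −0.10 (adjusted p = 0.336). No pair of neighbours in its order, 2, 0, 1, 6 and 24 h, was called different. For 24 h against 6 h the adjusted p was 0.0845, and it was 0.0412 without 2 h replicate 2 and 0.0268 without replicates 1 and 2. Prg4 shares 4.77% of its exonic bases with Tpr, a nuclear pore gene on the opposite strand, whose mean stayed between 217 and 237 CPM and did not pass the test over all times (adjusted p = 0.62).

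Tppp3 (ENSMUSG00000014846; mm10, chromosome 8, bases 105467493 to 105471526, minus strand), of a family of tubulin-binding proteins, marks cells of the tendon sheath and paratenon in mice. It was barely present, with 8 to 50 reads per library. Replicates 1 to 4 had 0.788, 0.711, 0.874 and 0.900 CPM at 0 h, 0.475, 1.44, 1.01 and 1.08 CPM at 1 h, and 1.24, 2.52, 2.88 and 2.47 CPM at 2 h. They had 1.92, 1.86, 1.56 and 0.735 CPM at 6 h and 1.19, 1.63, 1.83 and 1.42 CPM at 24 h. The 2 h and 24 h libraries all lay above 0 h, and those of 6 h overlapped it through replicate 4.

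At 2 h Tppp3 was 2.76-fold higher (log2 1.46 ± 0.331, adjusted p = 0.000985), with a 95% interval of 1.76 to 4.32. The call at 2 h remained without 2 h replicates 1 and 2 (1.70, adjusted p = 0.00072). At 6 h the change was 0.89 ± 0.339 (adjusted p = 0.0382). That call was lost without any one of the 0 h libraries or of 6 h replicates 1 to 3, with adjusted p between 0.0531 and 0.122. At 24 h the change was 0.89 ± 0.344 and not called (adjusted p = 0.057), but it was without 1 h replicate 1 (0.0432), 2 h replicate 1 (0.0442) or 6 h replicate 4 (0.0401). No neighbours in its order, 2, 6, 24, 1 and 0 h, were called different.

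**Figure D4:**
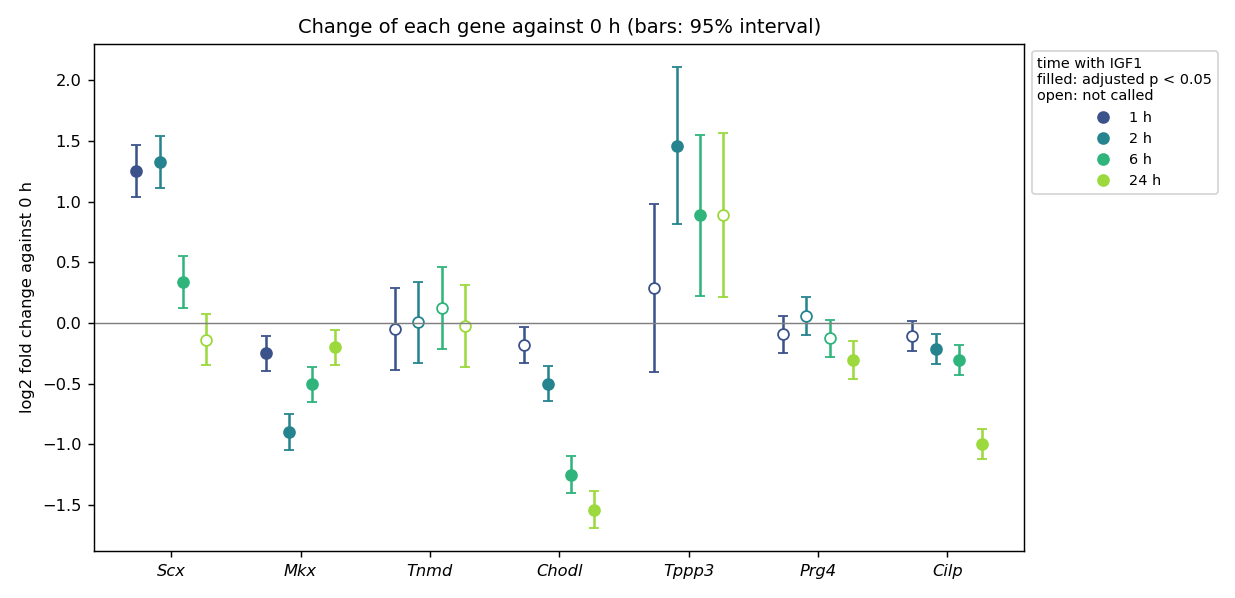
Log2 fold change against 0 h (vertical axis) of each gene at 1, 2, 6 and 24 h of IGF1 (colours), with bars for the 95% interval; filled points have an adjusted p under 0.05. Scx at 1 and 2 h and Tppp3 at 2 h are the largest rises, Chodl at 6 and 24 h the largest falls, and every Tnmd interval spans 0.

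Between later times, 3 of the 7 genes were called at 2 h against 1 h (16.3% of all genes in either direction), 3 at 6 h against 2 h (27.4%) and 4 at 24 h against 6 h (35.8%). Across longer gaps the counts were 4 at 6 h against 1 h (33.4%), 4 at 24 h against 1 h (34.4%) and 5 at 24 h against 2 h (43.6%). Prg4 at 24 h against 1 h (−0.21, adjusted p = 0.0409) lost its call in 11 of 20 fits without 1 library and in 4 of 8 other alternatives. For Cilp at 6 h against 1 h (−0.20, adjusted p = 0.0152) this was 4 of 20 and 2 of 8. Both Scx and Mkx were lower at 6 h than at 1 h (−0.91 and −0.26). At 6 h against 2 h Scx fell by 0.99 and Mkx rose by 0.39, and at 24 h against 6 h Scx fell by 0.48 and Mkx rose by 0.31 on the log2 scale. At 2 h against 1 h Tppp3 was called higher (1.17, adjusted p = 0.0145), a call that was lost without 1 h replicate 1 (0.95, 0.0631) and with only the 8 libraries compared (1.19, 0.0784).

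Genes with the most similar profile were found by Pearson correlation of log2 CPM over the 20 libraries, among 11852 other named genes with a mean of at least 1 CPM. The 20 points include the 5 times and share the library's depth and make-up, so these values describe the profile alone. For Scx they were Ier5l (0.965), Stk40 (0.965) and Zfp703 (0.960). For Mkx they were Spg20 (0.956), Fam26e (0.938) and Eya1 (0.930). Chodl was closest to Pamr1 (0.980), Kcnab1 (0.973) and Fst (0.973), the activin-binding protein follistatin. Cilp was closest to Thbs4 (0.973), a tendon matrix glycoprotein, C1s1 (0.969) and Cpxm2 (0.962). Prg4 was closest to Fbln1 (0.889), Rgcc (0.873) and complement C3 (0.868). Tppp3 and Tnmd had no gene as close, with Snhg8 (0.827), Cox8a (0.815) and Ccdc12 (0.806) for Tppp3 and Olfml3 (0.771), Copz2 (0.757) and Ppib (0.736) for Tnmd. Among the 7 genes themselves, Chodl and Cilp were most alike (0.846) and Mkx and Tppp3 most opposed (−0.631), with Scx and Mkx at −0.557.

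Among 9 other transcription factors of tendon that were tested, edgeR called 3 higher and none lower at 1 h (2 lower at an unadjusted p under 0.05, none by DESeq2), with a median log2 change of 0.33 against 0.0033 for all genes. At 2 h 4 were higher and 1 lower (median 0.30, all genes −0.0061), or 5 and 1 without 2 h replicates 1 and 2. The counts were 3 and 2 both at 6 h (0.16, −0.0019) and at 24 h (0.016, 0.0015). Over all genes 6.75% were higher and 3.88% lower at 1 h, and 20.2% and 17.5% at 2 h. The shares were 20.6% and 19.6% at 6 h and 12.7% and 13.2% at 24 h, so the 2 lower at 6 h lie near the background. Egr1, a zinc-finger factor that responds to growth factors and load, rose by 1.28 ± 0.191 at 1 h (adjusted p = 0.00019) and was still at 1.13 ± 0.191 at 24 h. Egr2 rose by 1.72 ± 0.221 at 1 h (adjusted p = 2.41e-06). Eya1 fell by 0.96 at 2 h (SE 0.0711, adjusted p = 3.01e-11), beside Mkx. Of the 2 lower at 24 h, Etv4 lost its call without 0 h replicate 3 (adjusted p = 0.0639) or 24 h replicate 4 (0.0837), and Etv5 was at −0.49 ± 0.109 (adjusted p = 0.00127). Hoxd11 is not analysed here.

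Of 20 tendon matrix genes, none was called at 1 h by edgeR, none had an unadjusted p under 0.05, and DESeq2 called none. At 2, 6 and 24 h 9 were lower each time. Of all genes 17.5%, 19.6% and 13.2% were lower and 20.2%, 20.6% and 12.7% higher at those times. The medians were −0.20, −0.20 and −0.21 at those times, against −0.0061, −0.0019 and 0.0015 for all genes. Angptl7 fell by 0.41 at 6 h and by 1.12 at 24 h (SE 0.066, adjusted p = 5.99e-13), and the collagen gene Col5a2 by 0.42 at 6 h. The 3 higher at 2 h, Kera, Tnc and Lum, were not called without 2 h replicates 1 and 2, and 7 were then lower. Their count was 1 on leaving out any one of the 0 h libraries, 2 h replicate 2, 6 h replicate 1 or 3, or 24 h replicate 2. At 6 h 1 was higher, Col3a1 (0.31 ± 0.0821, adjusted p = 0.00321). At 24 h 5 were higher, among them Col14a1 (1.48 ± 0.142, adjusted p = 1.80e-08), Kera (1.29 ± 0.342, 0.0108) and Col3a1 (1.22 ± 0.0832, 9.24e-12). Without 0 h replicate 2, 24 h replicate 3 or 24 h replicate 4 there were 3.

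TGF-beta is known to induce Scx. Of 15 genes of its pathway, edgeR called 2 higher and none lower at 1 h (1 lower at an unadjusted p under 0.05, none by DESeq2). Later counts were 4 higher and 5 lower at 2 h, 3 and 6 at 6 h, and 4 and 8 at 24 h. Of all tested genes, 6.75% were called higher and 3.88% lower at 1 h. Later shares were 20.2% higher and 17.5% lower at 2 h, 20.6% and 19.6% at 6 h, and 12.7% and 13.2% at 24 h. The counts higher at 2 and 6 h therefore lie near the background. The medians were −0.0047, −0.043, −0.12 and −0.19 over the 4 times, against 0.0033, −0.0061, −0.0019 and 0.0015 for all genes. Skil, a feedback inhibitor, was among those higher at 1 h (0.53 ± 0.076, adjusted p = 1.32e-05). It was lower than at 0 h at 2 h (−0.215, adjusted p = 0.0284), 6 h (−0.239, 0.0143) and 24 h (−0.447, 7.08e-05). The ligand Tgfb3 fell by 0.69 at 6 h (adjusted p = 2.82e-05) and by 0.68 at 24 h, and the ligand Tgfb2 rose by 1.03 at 24 h (SE 0.0819, adjusted p = 1.48e-10). The 2 h counts were 3 and 6 without 2 h replicates 1 and 2 and 7 and 3 without 2 h replicate 4, and those higher at 24 h were 2 without 0 h replicate 2 or 4.

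Cartilage genes and sheath genes were set beside Cilp, Chodl, Prg4 and Tppp3. Of 8 cartilage genes tested, edgeR and DESeq2 called none at 1 h (1 higher at an unadjusted p under 0.05). At 2 h 1 was higher and 2 lower, at 6 h 5 were lower, and at 24 h 1 was higher and 4 lower. The shares of all genes stand beside the TGF-beta list, and the 1 of 8 higher at 24 h is near its 12.7%. The medians were −0.17, −0.45, −0.57 and −0.61 over the 4 times, against 0.0033, −0.0061, −0.0019 and 0.0015 for all genes. Acan, Col9a1, Cnmd and Chad were too low to test, and Snorc is not analysed here. Sox9, the cartilage transcription factor, was higher at 2 h (0.53 ± 0.102, adjusted p = 0.000171) and lower at 6 h (−0.42 ± 0.105, 0.00189) and 24 h (−0.62 ± 0.107, 6.31e-05). Comp, a matrix protein of cartilage and tendon, was lower at 24 h (−0.60 ± 0.101, adjusted p = 7.44e-05). The 4 lower at 24 h were 2 without 0 h replicate 1 or 24 h replicate 2, and the 2 lower at 2 h ranged from 1 to 4, with 1 without 0 h replicate 1, 2 h replicate 2 or 2 h replicates 1 and 2, and 4 without 2 h replicate 4.

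Of 11 sheath, paratenon and synovial genes, 1 was called higher at 1 h. Later counts were 4 higher and 1 lower (2 h), 3 and 4 (6 h), and 4 and 2 (24 h), and the medians over the 4 times were 0.092, 0.18, −0.070 and 0.14. With 11 genes, some of these counts are near the shares of all genes given beside the TGF-beta list. Examples are the 1 higher at 1 h, the 3 higher at 6 h and the 2 lower at 24 h. At 2 h without 2 h replicates 1 and 2, edgeR called 5 higher, and none lower at an adjusted or unadjusted p under 0.05, nor did DESeq2. Cd44, the hyaluronan receptor, rose by 1.01 ± 0.108 at 2 h (adjusted p = 1.98e-07) and 1.00 ± 0.108 at 6 h. Its call at 1 h, 0.44 ± 0.108, was lost without 0 h replicate 1 (0.37, adjusted p = 0.0599), and without 2 h replicate 4 the count at 1 h was 2. Dpp4, a marker of fascia fibroblasts, fell by 0.61 at 6 h and by 0.99 at 24 h (SE 0.0879, adjusted p = 1.88e-09), and its call at 2 h was lost in each of 8 fits without 1 library and without 2 h replicates 1 and 2 (−0.18, 0.222). Cd34 rose by 0.75 ± 0.0691 (adjusted p = 2.46e-09) and Ly6a by 0.68 ± 0.0739 (4.84e-08) at 24 h, when Prg4 was lower. Tppp3 at 24 h was at 0.89 ± 0.344, also above 0 h, but was not called (adjusted p = 0.057). The other gene lower at 24 h, Clic5, lost its call in 9 fits without 1 library.

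**Figure D5:**
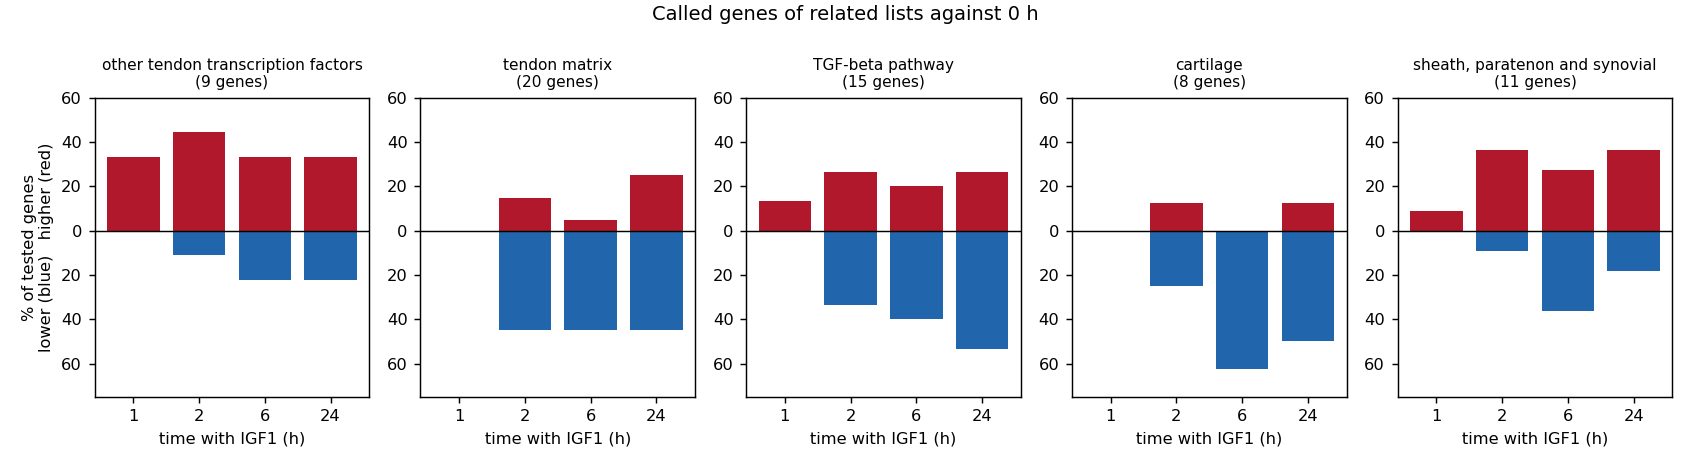
Share of the tested genes of each related list that was called higher (red, above 0) or lower (blue, below 0) than at 0 h, in percent (vertical axis), at 1, 2, 6 and 24 h of IGF1. The other tendon transcription factors have 3 or 4 of 9 called higher at every time, and 9 of 20 tendon matrix genes are lower at 2, 6 and 24 h. The shares of all genes are not drawn and are given in the text.

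The authors' deposited table of edgeR results holds 12207 genes and all 7 described here. Of 49 comparisons of these genes that both give, 48 fell on the same side of an adjusted p of 0.05, and log2 fold changes differed by at most 0.015. The exception was Tppp3 at 24 h, with an adjusted p of 0.0472 in the authors' deposited table and 0.057 here.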

How the data were processed

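The data are RNA sequencing libraries of mouse tenocytes, 20 in all, and groups and replicate numbers come from the labels. The authors deposited whole-number read counts per gene. Tools named in the submitters' processing notes are STAR, FastQC and edgeR, with the mm10 build. No version, counting tool or use of strand is given in the sources used here. A second table that the authors deposited gives log2 fold changes and p-values, raw and adjusted, of their own edgeR comparisons, per the file headers.

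The deposited counts were fitted in edgeR 4.0.16 (R 4.3.3): filterByExpr over the 5 groups (14420 genes with 99.9% of counts), TMM scaling and 1 robust quasi-likelihood fit of all 20 libraries without covariates. The SE is the size of the log2 fold change over the square root of F. Calls use a two-sided Benjamini-Hochberg adjusted p under 0.05. The script was tested on simulated data. CPM per kb uses exonic lengths of the GENCODE M21 annotation of mm10, and profile likeness uses log2 CPM with a prior count of 2.

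The members and lists were chosen with earlier results of these data known. All 7 members were named whatever their values, and from each list up to 4 called genes per time with the largest change, and genes in small counts. Some genes that this rule allows are not reported here. Alternatives were RLE scaling, no filter, a filter of 1 CPM in 4 libraries, DESeq2 1.42.0, a replicate block, only the 8 libraries compared, leaving out each library, leaving out 2 h replicates 1 and 2, and, chosen after seeing the data, no scaling factor. Replicates of a time differed by more than sampling noise (chi-square of 2.88 to 52.5 per degree of freedom). The highest values, 38.8 to 52.5, were those of 2 h replicate 4. The labels of 0 h replicate 2 repeat the description of 0 h replicate 1; this pair gave 8.60 and both were counted.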

Additional observations from a re-analysis of the deposited data

Results flagged for a closer look

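Of 55 groups of 4 libraries examined (the 7 genes and the summed markers of other cell types), 3 held a library far from the other 3, and chance flags about 1 group in 20. None was a value of the 7 genes. Schwann cell markers summed to 107.8 CPM in 2 h replicate 2, against 26.96 to 36.55 CPM in the other libraries of that time. Endothelial markers summed to 58.66 CPM in the same library, against 24.56 to 29.95 CPM. At 0 h endothelial markers were lowest in replicate 1, at 41.19 CPM, against 43.43 to 43.76 CPM. Scx and Tnmd had their lowest 2 h values in 2 h replicate 2 and Prg4 its highest. The calls at 2 h for Scx, Mkx, Chodl, Tppp3 and Cilp remained without 2 h replicates 1 and 2.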

How the results depend on the processing

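No direction of a called change of the 7 genes reversed under any alternative. The calls of Scx at 1, 2 and 6 h, Mkx at 2 and 6 h, Chodl at 2, 6 and 24 h, Tppp3 at 2 h and Cilp at 6 and 24 h held under every alternative run. With no scaling factor, which moved the median of all genes at 24 h to 0.111 (0.0015 with TMM) and the share of calls that were higher to 74.1% (49% with TMM), Mkx at 24 h was at −0.092 (adjusted p = 0.383), Prg4 at −0.20 (0.0714) and Tppp3 at 1.00 (0.0277), with 2 genes lower and 1 higher. Tppp3 at 24 h was also called by DESeq2 (0.89, 0.0453), with only the 8 libraries compared (0.90, 0.0385) and without 2 h replicates 1 and 2 (0.89, 0.0444), each giving 1 gene higher at 24 h. With only the 8 libraries, Scx at 24 h was called (−0.13, 0.0144), Chodl at 1 h was called (−0.19, 0.0238; 2 genes lower), and Cilp at 2 h was not (−0.22, 0.0541). Without 2 h replicates 1 and 2 Chodl at 1 h was called (−0.19, 0.0489; 2 genes lower). With no filter Tppp3 at 6 h was not called (0.89, 0.0621; 1 gene higher). Leaving out 1 library, values ran from −0.28 to −0.22 for Mkx at 1 h, −0.24 to −0.13 for Chodl at 1 h, −0.23 to −0.17 for Mkx at 24 h, 0.75 to 1.12 for Tppp3 at 6 h and 0.79 to 0.99 for Tppp3 at 24 h. Counts then ran from 0 to 2 lower at 1 h, 1 to 2 higher at 6 h and 0 to 1 higher at 24 h. The cause of these changes was not tested. Same-numbered libraries of different times did not deviate together (40 pairs, correlation −0.17 to 0.126, median −0.0039). These correlations cannot tell if same-numbered libraries share a mouse or a culture. With the replicate block 1518, 5361, 5752 and 3677 genes were called at 1, 2, 6 and 24 h, and no call of the 7 genes changed. Depth limits Tppp3 most among these genes, with 8 to 50 reads per library.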
